A study of Sus scrofa with 9 samples.

Results

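The 40 genes described here encode lysosomal hydrolases, lysosomal membrane proteins, subunits of the lysosomal proton pump, the transcription factors TFEB and TFE3, and proteins of autophagy. They were chosen by symbol, and all 40 were found among the 19535 gene rows of the count table and passed the filter on low counts. The RNA came from porcine valvular interstitial cells (PVICs), the fibroblast-like cells that maintain the aortic valve, from wild-type pigs aged 4 to 5 months. The control cells were kept in DMEM, the OIM group received osteogenic medium (OIM), which is DMEM with insulin, 2 mmol/L phosphate and 50 µg/mL ascorbic acid, and the bFGF group received OIM with 50 ng/mL basic fibroblast growth factor (bFGF). The labels give 3 days of treatment for every group, while the study's methods give a shorter time before RNA extraction. Each group held 3 libraries, and nothing states that they came from separate animals or cultures, so the p-values measure only the spread between these libraries, which may be technical.

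The lysosome is the acid compartment in which cells break down proteins, glycans, lipids and worn organelles. Its hydrolases work at low pH, which a proton pump (the V-ATPase) maintains, and many of them are known from storage diseases that follow when 1 enzyme is lost. Autophagy delivers the cell's own material to the lysosome in double-membraned vesicles, and TFEB and TFE3 are transcription factors that bind the CLEAR element, a sequence built on the E-box CACGTG, near many of these genes. In the aortic valve, interstitial cells turn over collagen and proteoglycans, and several of the enzymes below act on these substrates.

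Depth was 57075793 to 64723837 counts per library in control, 57682710 to 67371523 in OIM and 46773376 to 48270827 in bFGF. TMM factors, which correct for differences in composition between libraries, were 0.9365 to 0.9671 in control and OIM and 1.103 to 1.111 in bFGF. OIM replicate 2 stood apart from the other OIM libraries, with a mean chi-square per gene of 19 and 19.1 against them where these differed by 5.87 and the pairs within the other groups by 4.69 to 11.6. Without it 1 member was called lower in OIM against control and 18 in bFGF against OIM, where all libraries gave 1 and 17. The member called in OIM against control was then MANBA and no longer LIPA, and the member gained in bFGF against OIM was PSAP. Levels are given as CPM, the count scaled to a common library size after TMM. Of 9 markers of valve interstitial cells all were present, and their summed level was 63200 to 68400 CPM in control, 60000 to 63200 in OIM and 37400 to 37800 in bFGF. In bFGF against OIM 4 of them were called lower, the collagen genes COL1A1 (-1.34 on the log2 scale), COL1A2 and COL3A1 among them, and 2 higher, VIM (0.66) and POSTN (1.46). Of 7 endothelial markers 6 were higher in bFGF than in OIM, at a summed level of 34.0 to 36.6 CPM against 18.9 to 21.7, with 19.3 to 22.7 in control. PECAM1 made up most of this sum, at 19.6 to 21.7 CPM in bFGF and 10.6 to 12.7 in OIM. Of 9 macrophage markers 5 were tested and 2 were lower in bFGF, and the list summed to 8.88 to 9.91 CPM there, 16.0 to 16.5 in OIM and 14.8 to 18.2 in control. Most of this sum was CD14, at 7.11 to 8.04 CPM in bFGF, 12.9 to 13.9 in OIM and 11.7 to 14.9 in control. Over all genes tested 18.4% were called lower in bFGF than in OIM and 17.7% higher. Osteoclast markers were near 0 throughout, at 0.0175 to 0.285 CPM in sum over 4 genes, and of 4 cardiomyocyte markers 3 were in the table, with TNNT2 at 0, TNNI3 called higher in bFGF than in OIM (0.56) and a summed level of 1.96 to 2.59 CPM in control, 1.7 to 3.1 in OIM and 2.63 to 3.56 in bFGF. The part of these markers in the results below was not tested, and in RNA from whole cultures fewer cells of a type and less RNA per cell cannot be told apart.

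The start regions of the members were read from the Sscrofa11.1 assembly with the RefSeq annotation, in a window from 250 bases before to 50 bases after the annotated 5′ end, and searched on both strands for CACGTG, for the longer TCACGTG and TCACGTGA that contain it, and for TCATGTG. The 8-base palindrome TCACGTGA was found in 6 of 40 members (15.0%), in 1.09% of the windows of 20641 protein-coding genes and in 1.47% of those of the 13642 tested genes that had a window. TCACGTG was found in 10 members (25.0%) against 4.05% of all windows and 5.1% of those of tested genes, and CACGTG in 11 members (27.5%) against 7.64% and 9.16%. TCATGTG was found in 2 members (5.0%) against 2.48% and 1.95%. The sites with the full palindrome are shown with those of LAMP2 and CTSA, whose levels are described below, each as 30 bases in the direction of transcription, and the capitals mark TCACGTGA or, where the palindrome is incomplete, CACGTG.
LAMP1, chr11:78600658-78600687, plus strand: gcagcgcggccTCACGTGAcgggcgccgcc
MCOLN1, chr2:71613305-71613334, minus strand: aaccgtgtgggTCACGTGActgggggcgcg
HEXA, chr7:60878428-60878457, plus strand: gccgtctctggTCACGTGAcccgccaattg
HEXA, chr7:60878478-60878507, plus strand: tgaccatggcgTCACGTGActcggccagct
NEU1, chr7:23958673-23958702, minus strand: gtgctgaagggTCACGTGAggagttacgcg
GALNS, chr6:869194-869223, plus strand: cgccggccgcgTCACGTGAcgacgccggtc
ATP6V1H, chr4:77211502-77211531, plus strand: cgtgtcttggcTCACGTGAccggcgctcct
LAMP2, chrX:98623967-98623996, minus strand: tctggcccccttCACGTGcggagattggct
CTSA, chr17:48082452-48082481, plus strand: gatgccagagcaCACGTGactcgagataca

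In HEXA the core of the sites began 91 and 41 bases before the annotated 5′ end, and in LAMP1 the core of the site shown began 148 bases before it. In MCOLN1 and ATP6V1H the sites shown lay 10 and 22 bases inside the annotated transcript. A match is a run of letters in this window and not a measured binding site. The genes with TCACGTGA did not share a direction in the counts, since HEXA and ATP6V1H were lower in bFGF than in OIM, MCOLN1 and NEU1 had fold changes above 0, and LAMP1 and GALNS fell by less than the fold limit. The palindrome was present in 2 of the 17 members called lower in bFGF (11.8%) and in 4 of the other 23 (17.4%). The other motifs split the opposite way, with CACGTG in 35.3% and 21.7%, TCACGTG in 29.4% and 21.7% and TCATGTG in 11.8% and 0.0%, and no split was tested.

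Levels between genes were compared per kilobase of merged RefSeq exons. In control, PSAP, the precursor of the saposins that activate sphingolipid hydrolases, stood highest at 368.1 CPM per kilobase, followed by the collagen-degrading protease CTSK at 367.3 and the cysteine protease CTSB at 353.9. These neighbours overlapped between libraries, so their order in control was not resolved. The autophagy receptor SQSTM1 (p62) followed at 311.0 and the aspartic protease CTSD at 235.5. TFEB at 3.671 and CTSS, a cysteine protease best known from antigen-presenting cells, at 3.346 were the lowest. In OIM the order at the top was PSAP at 298.3, CTSB at 285.6, whose libraries overlapped, and CTSK at 261.2. In bFGF it was CTSB at 324.8, PSAP at 211.0, then CTSK and SQSTM1, both at 147.6 with overlapping libraries. Libraries of a group lay close together, with a median coefficient of variation over the members of 3.38% in control, 4.17% in OIM and 3.62% in bFGF, and with highest values of 13.0% for CTSS in control, 12.2% for CLN3 in OIM and 12.9% for ARSA in bFGF.

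**Figure D1:**
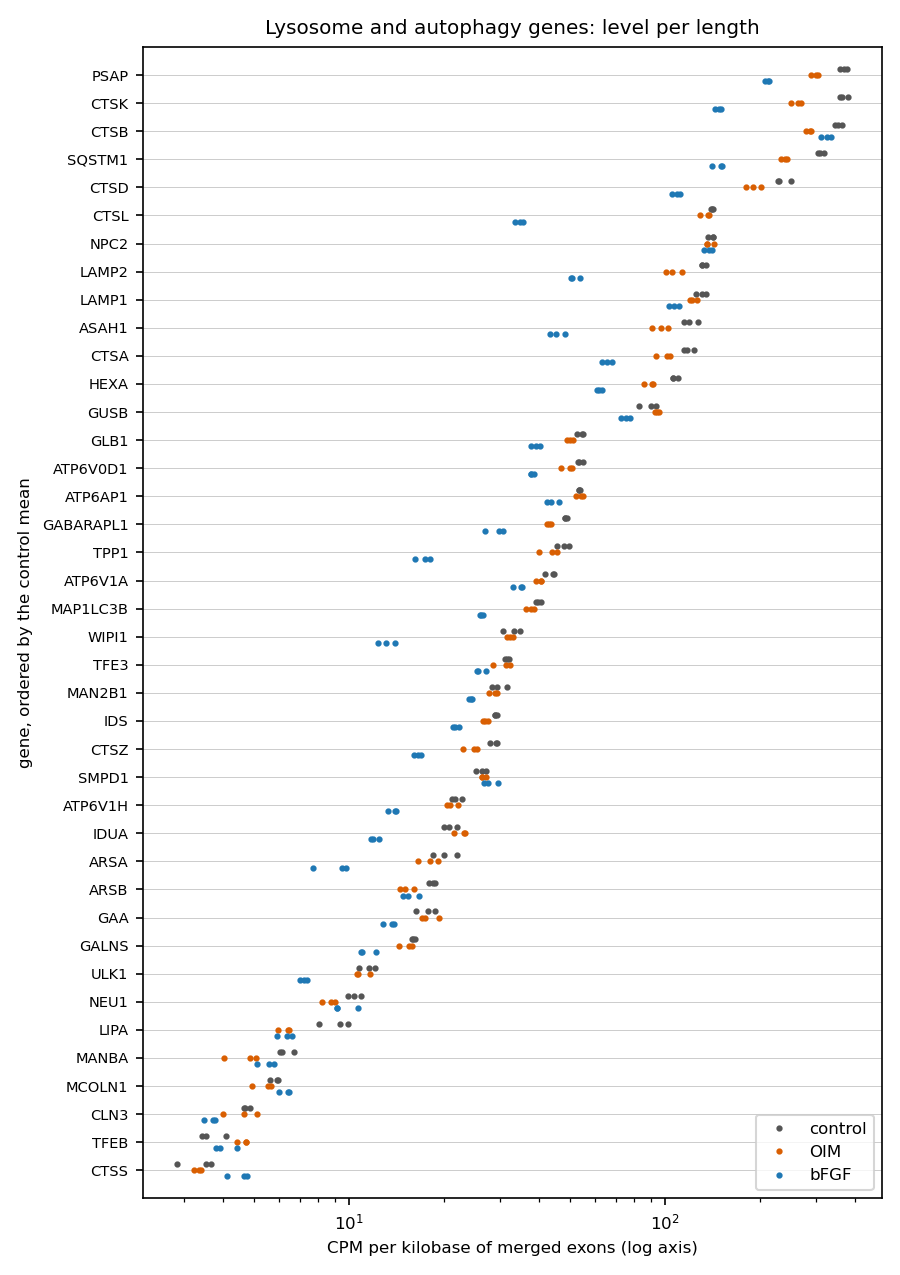
Level of each member in CPM per kilobase of merged exons on a log axis, with 1 point per library coloured by group (control, OIM and bFGF) and genes ordered by their mean in control. The control means of PSAP, CTSK and CTSB lie between 353.9 and 368.1, and in bFGF the mean of CTSB (324.8) stands above those of PSAP (211.0) and CTSK (147.6).

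Summed over the 40 members, the level was 8371 ± 113 CPM in control (SD, n = 3), 7000 ± 196 in OIM (SD, n = 3) and 5033 ± 97.0 in bFGF (SD, n = 3). OIM thus held 83.6% of the control sum and bFGF 71.9% of the OIM sum. Scaled by library totals and not by TMM, the sum in bFGF was 83.9% of that in OIM. Without CTSK, PSAP and CTSB, the 3 most abundant members, the sum in OIM was 88.2% of that in control and the sum in bFGF 67.5% of that in OIM.

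The comparison of bFGF with OIM asked what bFGF changes in cells that are already in osteogenic medium. A gene was called where the quasi-likelihood test of edgeR gave an adjusted p (Benjamini-Hochberg, over all 13662 genes tested) of at most 0.05 and its log2 fold change was at least 0.5 in size. Of the 40 members, 17 were called lower in bFGF (42.5%) and 0 higher, whereas over all genes tested 18.4% were called lower and 17.7% higher. By the adjusted p alone 30 members were lower and 4 higher (CTSB, CTSS, MANBA and MCOLN1), against 33.5% and 33.8% of all genes, and 4 members were higher at an unadjusted p under 0.05 with no fold limit. DESeq2 gave 17 lower and 0 higher too. The median log2 fold change was -0.39 over the members and 0.00 over all genes. In 30 members every bFGF library lay below every OIM library, an order found in 35.8% of all genes, and in 5 every bFGF library lay above, against 36.3%.

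The scale bears on these counts. With library totals alone the median of all genes moved to 0.22 and that of the members to -0.17. A change of scale moves every gene by nearly the same amount. The distance between these medians (0.39) therefore could not change, and it tests nothing. On that scale 9 members were called lower and 1 higher (CTSS), while 12.4% of all genes were called lower and 27.3% higher. The fold changes of LAMP1, NPC2, LIPA, ATP6V1A and TFEB turned positive there, which left 28 members below 0 where TMM gave 33, against 34.6% of all genes. Every bFGF library lay below every OIM library in 24 members and above in 9, against 23.1% and 51.4% of all genes on that scale.

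**Figure D2:**
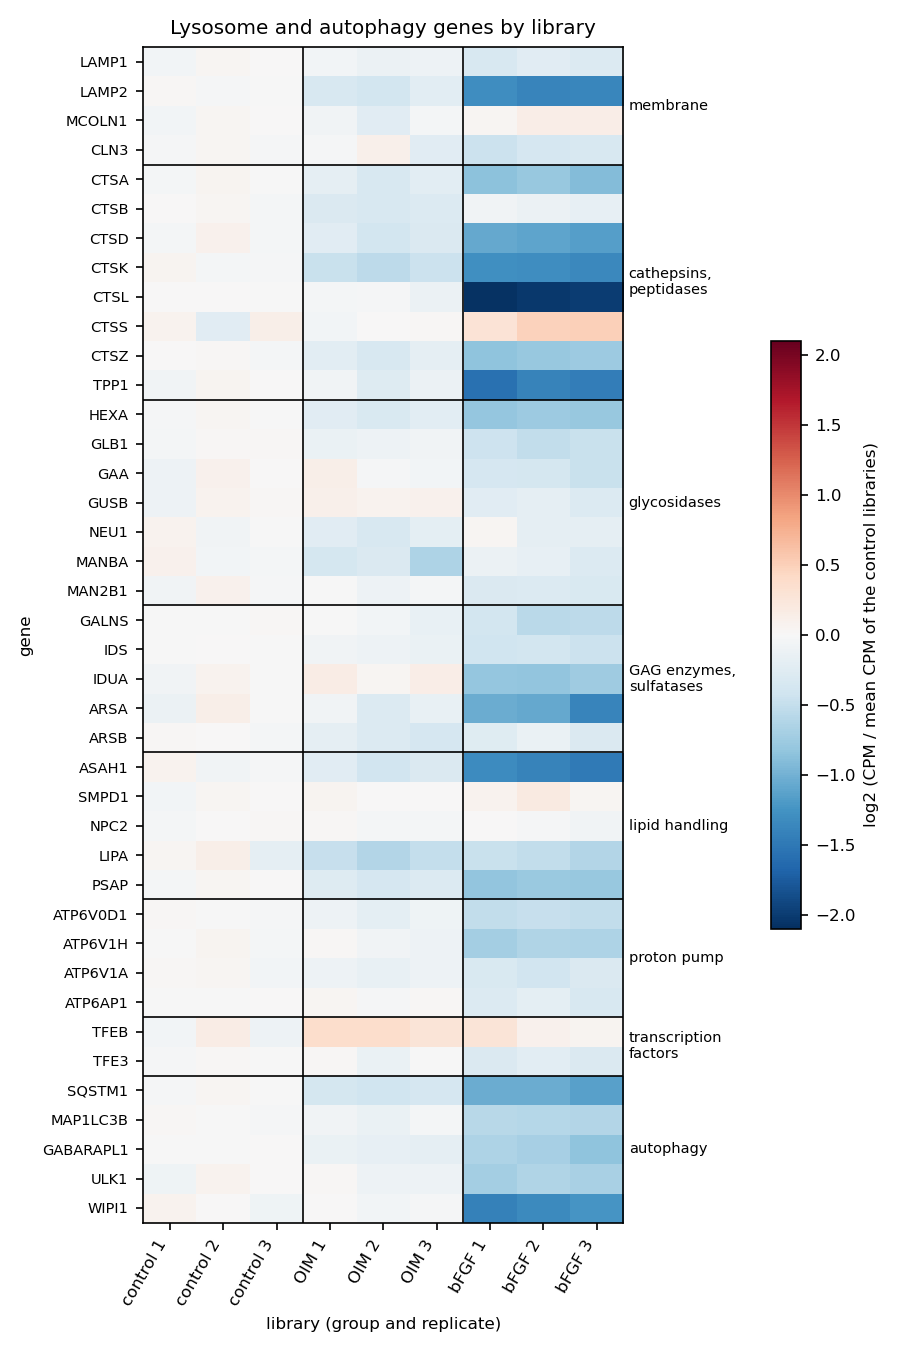
Heat map of every member (rows, grouped by role) in each of the 9 libraries (columns, grouped as control, OIM and bFGF), where colour gives the log2 of CPM over the member's mean in the control libraries, blue for lower and red for higher. In 30 of 40 members every bFGF library is below every OIM library.

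The cathepsins and peptidases held the member with the largest change. CTSL, a cysteine endopeptidase encoded at chr10:27668523-27674705 on the minus strand, was at 202, 200 and 198 CPM in control, 194, 196 and 184 in OIM and 47.5, 49.1 and 50.2 in bFGF. The bFGF libraries lay far below both other groups, and the log2 fold change against OIM was -1.96 (SE 0.0401, adjusted p = 9.82e-19 in edgeR), a 3.9-fold lower level. TPP1, a tripeptidyl peptidase lost in a childhood neuronal ceroid lipofuscinosis (chr9:3135580-3143408, plus strand), was at 182, 159 and 175 CPM in OIM and 64.7, 72.3 and 69.8 in bFGF. Its log2 fold change was -1.32 (SE 0.0523, adjusted p = 1.58e-14 in edgeR). CTSK (chr4:98389459-98404969, plus strand) was at 970, 917 and 988 CPM in OIM and 552, 546 and 528 in bFGF, with a log2 fold change of -0.82 (adjusted p = 8.91e-14 in edgeR). Its gene model shares 554 bases with ARNT on the same strand, so reads there could be counted for either. CTSD fell by 0.81, from 405, 364 and 384 CPM in OIM to 224, 220 and 213 in bFGF. CTSA, the carboxypeptidase that also shields beta-galactosidase and neuraminidase, fell by 0.60, and the carboxypeptidase CTSZ fell by 0.56, and neither was called with library totals alone.

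Among the members, the cathepsins CTSB and CTSS did not share this direction. CTSB was at 839, 812 and 844 CPM in OIM and 976, 951 and 911 in bFGF, a log2 fold change of 0.19 (SE 0.035, adjusted p = 9.83e-05 in edgeR) that was under the fold limit. CTSS was at 13.1, 13.6 and 13.8 CPM in OIM and 16.6, 18.9 and 19.3 in bFGF, with a log2 fold change of 0.44 (SE 0.0926, adjusted p = 0.000343 in edgeR), the highest among the members. In both genes every bFGF library lay above every OIM library. The cathepsins and peptidases thus had 6 of 8 members called lower, beside 18.4% of all genes, and a median of -0.71, with values from -1.96 to 0.44.

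All 5 autophagy genes were called lower in bFGF, beside 18.4% of all genes, with a median log2 fold change of -0.61. WIPI1, which binds phosphoinositides at the forming autophagosome (chr12:11715332-11752009, plus strand), was at 62.4, 59.8 and 61.0 CPM in OIM and 23.2, 24.7 and 26.4 in bFGF, a log2 fold change of -1.30 (SE 0.0577, adjusted p = 8.9e-14 in edgeR). SQSTM1, which carries ubiquitinated cargo to the autophagosome (chr2:78752768-78763998, minus strand), was at 524, 509 and 532 CPM in OIM and 332, 329 and 308 in bFGF, a log2 fold change of -0.69 (SE 0.0362, adjusted p = 1.15e-12 in edgeR). Neither gene had overlapping libraries. ULK1, the kinase that starts autophagosome formation, fell by 0.61 (adjusted p = 2.13e-09 in edgeR). GABARAPL1 and MAP1LC3B, ubiquitin-like proteins that are joined to the autophagosome membrane, fell by 0.56 and 0.51. MAP1LC3B was at 60.7, 58.4 and 61.9 CPM in OIM and 42.7, 42.1 and 41.8 in bFGF (adjusted p = 3.08e-09 in edgeR), and without OIM replicate 3 its change was -0.497, inside the fold limit and no longer called. The summed level of the 5 genes in bFGF was 61.8% of that in OIM, and 72.0% with library totals alone. With library totals alone SQSTM1, ULK1, GABARAPL1 and MAP1LC3B kept a negative fold change but were not called.

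The membrane proteins differed among themselves. LAMP2, which is needed for fusion of lysosomes with autophagosomes and, as its A isoform, for chaperone-mediated autophagy (chrX:98586718-98623939, minus strand), was at 385, 372 and 373 CPM in control, 300, 288 and 323 in OIM and 153, 144 and 145 in bFGF. The 3 groups did not overlap, and bFGF was 2.06-fold lower than OIM, with a log2 fold change of -1.04 (SE 0.0419, adjusted p = 2e-14 in edgeR). LAMP1, the other major glycoprotein of the lysosomal membrane, was at 245, 234 and 236 CPM in OIM and 201, 215 and 207 in bFGF. Its log2 fold change was -0.20 (SE 0.0387, adjusted p = 0.000154 in edgeR), and 0.03 with library totals alone. CLN3 had a log2 fold change of -0.33, and MCOLN1, the lysosomal calcium channel also called TRPML1, one of 0.23 (adjusted p = 0.0185 in edgeR).

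Among the glycosidases, glycosaminoglycan enzymes and sulfatases, 3 of 12 were called lower, beside 18.4% of all genes tested. IDUA, which removes iduronic acid from dermatan and heparan sulfate, was at 86.6, 79.8 and 86.2 CPM in OIM and 44.5, 43.7 and 46.5 in bFGF, a log2 fold change of -0.91 (SE 0.0491, adjusted p = 1.98e-12 in edgeR). ARSA, the sulfatase that acts on sulfatide, was at 36.3, 31.5 and 34.5 CPM in OIM and 18.7, 18.2 and 14.6 in bFGF, with a log2 fold change of -0.99 (SE 0.0865, adjusted p = 3.41e-09 in edgeR). HEXA, the alpha subunit of beta-hexosaminidase, was at 167, 158 and 168 CPM in OIM and 112, 116 and 114 in bFGF, with a log2 fold change of -0.53, and was not called with library totals alone. IDUA lies for 10536 bases across from SLC26A1 on the opposite strand and HEXA for 27297 bases across from the lncRNA LOC102166620, and whether the counting used strand is not given in the sources used here. The other 9 had log2 fold changes from -0.42 (GALNS) to 0.24 (MANBA). ARSB, which removes sulfate from dermatan and chondroitin sulfate, was at 93.4, 87.0 and 83.8 CPM in OIM and 89.1, 96.6 and 86.1 in bFGF, and its change of 0.04 did not pass the test (adjusted p = 0.468 in edgeR).

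Among the genes of lipid handling, ASAH1, the acid ceramidase, was at 240, 215 and 229 CPM in OIM and 114, 107 and 102 in bFGF. Its log2 fold change was -1.08 (SE 0.0496, adjusted p = 1.48e-13 in edgeR). PSAP, at 866, 822 and 854 CPM in OIM and 588, 607 and 602 in bFGF, stood just inside the limit with -0.50 (adjusted p = 5.61e-11 in edgeR) and was not called. It was called in 6 of the 9 fits that left out a library, those without OIM replicate 2, bFGF replicate 2 or 3 or any control library. NPC2, which carries cholesterol within the lysosome, was at 175, 166 and 166 CPM in OIM and 172, 168 and 162 in bFGF, and with SMPD1 and LIPA it did not pass the test. The lipid genes thus ranged from genes whose groups lay far apart to genes whose groups overlapped.

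All 4 proton pump genes had every bFGF library below every OIM library, an order found in 35.8% of all genes, and with library totals alone ATP6V1A and ATP6AP1 overlapped. Their summed level in bFGF was 79.3% of that in OIM, and 92.5% with library totals alone. ATP6V1H, a subunit of the cytosolic part of the pump, was the member called. It was at 50.0, 47.0 and 45.9 CPM in OIM and 30.0, 31.8 and 31.5 in bFGF, a log2 fold change of -0.61 (adjusted p = 3.11e-09 in edgeR), and it was not called with library totals alone. The other pump genes had values from -0.22 to -0.38. The transcription factors were not called. TFEB was at 11.2, 11.3 and 10.5 CPM in OIM and 10.5, 9.30 and 9.06 in bFGF, with a log2 fold change of -0.19 (adjusted p = 0.0917 in edgeR), and 0.03 with library totals alone. TFE3 was at 110, 97.8 and 108 CPM in OIM and 87.3, 93.0 and 87.4 in bFGF, with -0.24 (adjusted p = 0.000133 in edgeR). With library totals alone its OIM and bFGF libraries overlapped. The summed level of TFEB and TFE3 in bFGF was 85.0% of that in OIM, and 99.2% with library totals alone.

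**Figure D3:**
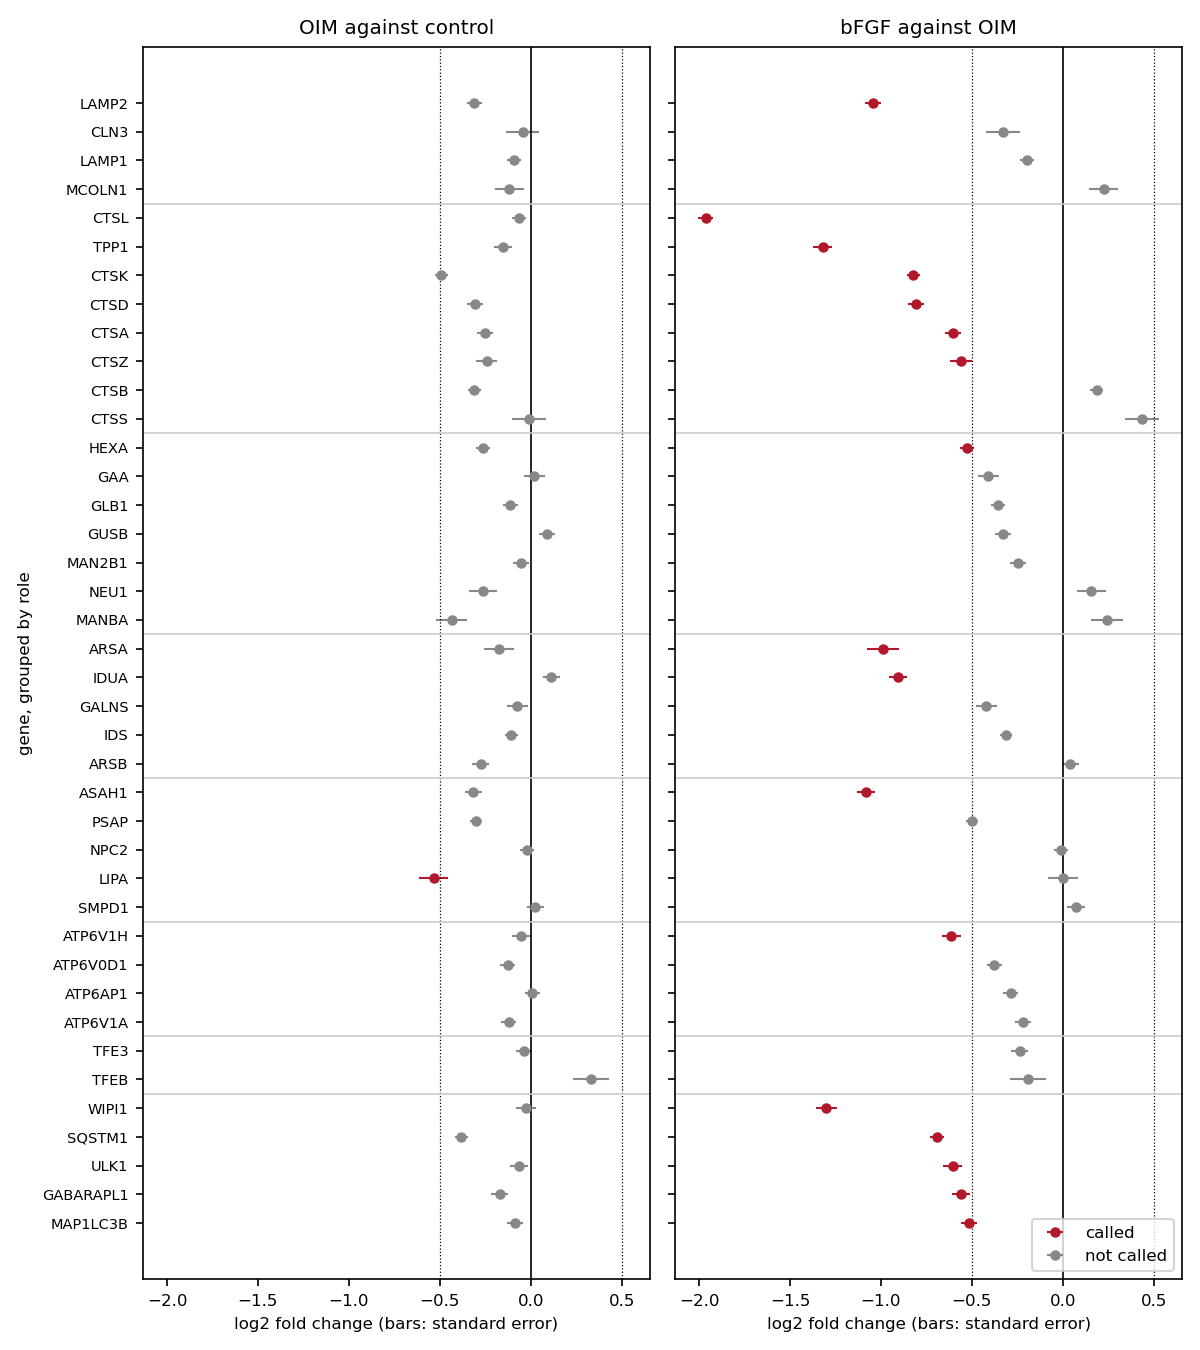
Log2 fold change of every member in OIM against control (left) and bFGF against OIM (right), with bars of 1 standard error, genes grouped by role, dotted lines at the fold limit of 0.5 in either direction and red points for called genes. On the left LIPA (-0.53) is the only red point. In bFGF against OIM, CTSL has the lowest value (-1.96) and CTSS the highest (0.44), and all 5 autophagy genes lie beyond the lower line.

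OIM against control asked what the osteogenic medium itself changed. Of the 40 members 1 was called lower (2.5%) and 0 higher, against 0.864% and 1.49% of all genes tested. DESeq2 gave the same counts, and in edgeR 2 members were higher at an unadjusted p under 0.05 with no fold limit. The called gene was LIPA, the acid lipase that hydrolyses cholesteryl esters and triglycerides, at 26.9, 28.5 and 23.1 CPM in control and 18.6, 17.1 and 18.5 in OIM. Its log2 fold change was -0.53 (SE 0.0796, adjusted p = 0.000107 in edgeR), and it was -0.49 without OIM replicate 2 and -0.47 without control replicate 2, inside the fold limit. Its gene model also spans IFIT1, IFIT2 and IFIT3 on the opposite strand. CTSK, with -0.49, was called in 4 of the 9 fits that left out a library (without OIM replicate 1 or 3 or control replicate 2 or 3), and MANBA in 1 (without OIM replicate 2), so the count of called members ran from 1 to 2.

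Small differences in 1 direction were common. By the adjusted p alone 16 members were lower in OIM, against 5.87% of all genes, and TFEB was higher, against 7.69% of all genes. The members lower by this measure alone included the abundant CTSK, PSAP, CTSB and SQSTM1. CTSK was at 1396, 1316 and 1331 CPM in control and 970, 917 and 988 in OIM (adjusted p = 1.73e-08 in edgeR), and SQSTM1 at 668, 698 and 675 in control and 524, 509 and 532 in OIM, a log2 fold change of -0.38 (SE 0.0358, adjusted p = 4.21e-07 in edgeR). LAMP2 had -0.31 (adjusted p = 2.63e-05 in edgeR). LAMP1 and MAP1LC3B, both at -0.09, did not pass the test, with adjusted p of 0.129 and 0.226 in edgeR. Over the members the log2 fold changes ran from -0.53 to 0.33 with a median of -0.11, and 34 of 40 lay below 0, against 50.4% of all genes. In 22 members every OIM library lay below every control library, an order found in 14.2% of all genes.

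TFEB, the member that was higher, was at 8.40, 9.69 and 8.14 CPM in control and 11.2, 11.3 and 10.5 in OIM, so that every OIM library was higher. Its log2 fold change was 0.33 (SE 0.0985, adjusted p = 0.03 in edgeR), the highest among the members and under the fold limit. TFE3 had -0.04 (adjusted p = 0.663 in edgeR), with overlapping libraries, and its value without OIM replicate 2 was 0.015.

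Set against control, cells in OIM with bFGF had 20 members called lower (50.0%) and 0 higher, where 20.0% of all genes were called lower and 18.9% higher. This comparison shares its control libraries with the one above and its bFGF libraries with the comparison against OIM, so it is given for the sizes only. DESeq2 gave 19 lower and 0 higher, and 1 member was higher in edgeR at an unadjusted p under 0.05 with no fold limit. The median log2 fold change of the members was -0.50, with a range from -2.03 (CTSL) to 0.43 (CTSS), and with library totals alone 15 members were called lower and 1 higher (CTSS), against 13.5% and 28.8% of all genes. The members not called on that scale were ATP6V0D1, ATP6V1H, LIPA, MAP1LC3B and ULK1, and CTSB, NEU1, MANBA and NPC2 had positive fold changes there. The called members with the largest changes after CTSL were TPP1 with -1.47, ASAH1 with -1.40, LAMP2 with -1.35, WIPI1 with -1.33 and CTSK with -1.31. ARSA with -1.16, CTSD with -1.11 and SQSTM1 with -1.08 followed. The next were CTSA with -0.86, PSAP, CTSZ and HEXA, each between -0.80 and -0.79, IDUA with -0.79 and GABARAPL1 with -0.73. The smallest were ULK1 and ATP6V1H, both with -0.67, MAP1LC3B with -0.60, LIPA with -0.53 and ATP6V0D1 with -0.50. Of the members that were not called, LAMP1 had -0.29, TFE3 -0.28 and TFEB 0.14 (adjusted p of 1.44e-06, 2.44e-05 and 0.225 in edgeR). ATP6V0D1, a subunit of the membrane part of the pump, stood at the fold limit and was not called by DESeq2, nor in edgeR without OIM replicate 2 (-0.484), bFGF replicate 1 or 3 (both -0.499) or control replicate 1 (-0.489). LIPA was not called without bFGF replicate 3 (-0.492) or control replicate 2 (-0.467).

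**Figure D4:**
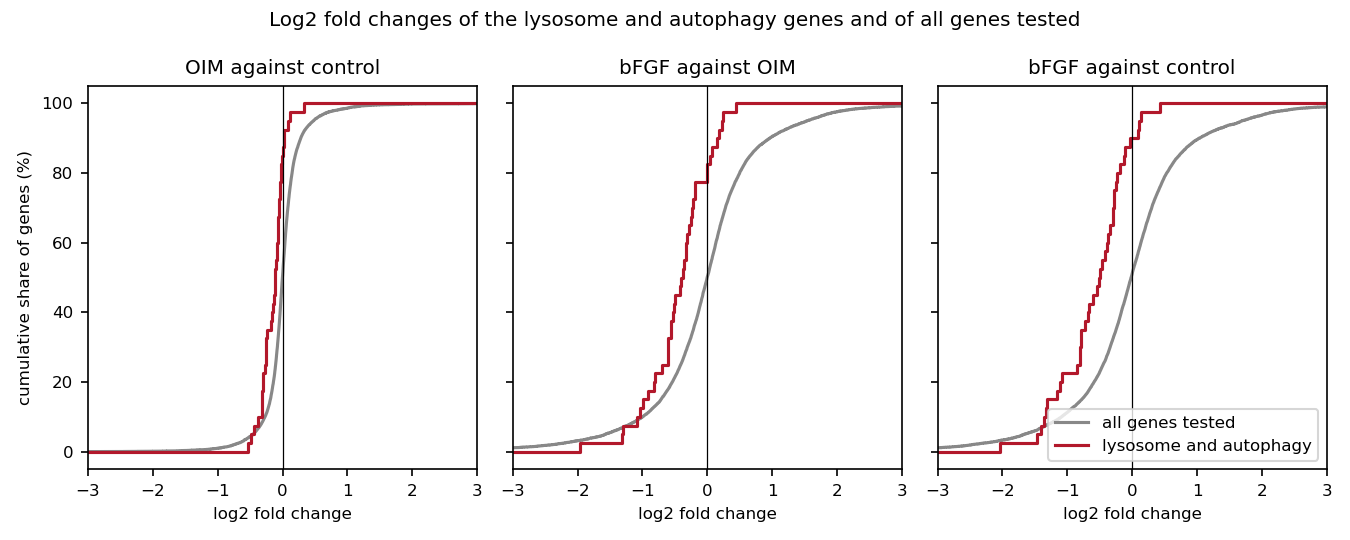
Cumulative share of genes (%, vertical axis) by log2 fold change (horizontal axis) for the 40 members in red and all 13662 genes tested in grey, in each of the 3 comparisons. The members' medians of -0.11, -0.39 and -0.50 lie below those of all genes, which are near 0.

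The other genes of the pathway were taken from 7 lists with 225 genes that hold no member, of which 217 were in the table and 209 were tested. In bFGF against OIM 49 of the 209 were called lower (23.4%) and 7 higher (3.35%), against 18.4% and 17.7% of all genes tested, with a median log2 fold change of -0.21. These and the list counts that follow were made after TMM. With library totals alone the median of all genes moved to 0.22, and 12.4% of them were called lower and 27.3% higher. List genes near the fold limit may therefore lose or gain a call on that scale, and the list counts were not set against it here. Receptors of autophagy and mitophagy had 10 of 23 genes lower and 0 higher. BNIP3, a mitophagy receptor that is also a known target of hypoxia signalling, was at 235, 252 and 237 CPM in OIM and 22.4, 21.8 and 23.2 in bFGF, a 10.8-fold lower level with a log2 fold change of -3.43 (adjusted p = 2.74e-20 in edgeR). PINK1, the kinase that marks damaged mitochondria, had -1.45. The autophagosome machinery had 8 of 41 lower (19.5%), a share near the 18.4% of all genes, and 0 higher, led by ATG9B with -2.18, whose level was at most 1.96 CPM, and ATG14 with -1.32.

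The genes of MiT/TFE and mTORC1 signalling had 9 of 35 lower (25.7%, beside 18.4% of all genes) and 0 higher. SESN1, a stress-induced inhibitor of mTORC1, was at 36.9, 34.8 and 39.4 CPM in OIM and 11.7, 9.86 and 9.16 in bFGF, and MITF, a relative of TFEB and TFE3, at 17.0, 14.6 and 14.9 in OIM and 6.68, 6.48 and 4.92 in bFGF. Their log2 fold changes were -1.85 and -1.36. Among the other lysosomal enzymes and activators 9 of 34 were lower (26.5%) and 4 higher (11.8%). GM2A, the activator that presents GM2 ganglioside to hexosaminidase A, had -1.20, the sulfatase ARSK -1.03, the cysteine protease CTSO 1.17 and the hyaluronidase HYAL2 1.10. The list thus held genes of both directions, as CTSO rose from 18.9, 22.2 and 20.4 CPM to 47.0, 47.2 and 44.4.

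Of the list of other lysosomal membrane proteins and transporters 10 of 31 were lower (32.3%) and 1 higher (3.23%), beside 18.4% and 17.7% of all genes, with OSTM1 at -0.97 and CD164 at -0.91. The gene called higher was CLN6, whose protein resides in the endoplasmic reticulum, with 0.54, and with 0.499 and no call without OIM replicate 3. The other V-ATPase subunits had 2 of 19 lower (10.5%), ATP6V0A1 with -0.92 and ATP6V0B with -0.54, and 1 higher, the assembly factor CCDC115 with 1.05. The genes of mannose 6-phosphate tagging and sorting had 1 of 26 lower (3.85%), the sorting receptor SORT1 with -0.96, and 1 higher, GNPTAB, which encodes subunits of the enzyme that makes the tag, with 0.69. The sorting list had the median nearest to 0, at -0.09, and the receptors the lowest, at -0.43. In OIM against control the lists held 1 called gene of 209 (0.478%, beside 0.864% of all genes called lower and 1.49% higher). It was ARSK, at 24.7, 21.4 and 23.7 CPM in control and 14.8, 15.5 and 16.4 in OIM (log2 fold change -0.58, SE 0.0773, adjusted p = 2.93e-05 in edgeR). In bFGF against control 64 were lower (30.6%) and 7 higher (3.35%), against 20.0% and 18.9% of all genes tested.

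**Figure D5:**
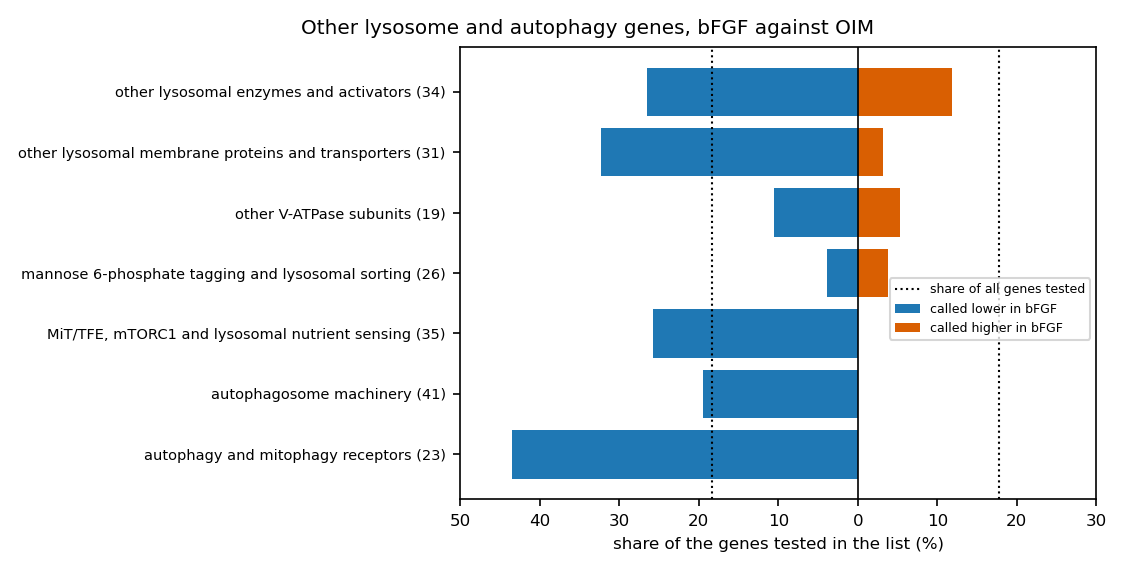
Share (%) of the tested genes in each of the 7 pathway lists that were called lower (blue bars to the left) or higher (orange bars to the right) in bFGF against OIM, with the number tested in parentheses and dotted lines at the shares of all genes tested (18.4% lower and 17.7% higher). Receptors of autophagy and mitophagy have 10 of 23 genes lower, and the tagging and sorting list has 1 of 26 lower and 1 higher.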

How the data were processed

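RNA from 9 libraries of PVICs in 3 groups was analysed, with groups and replicate numbers taken from the sample labels. The authors deposited whole-number counts for 19535 genes, estimated counts (unit expected counts) for 9888 non-coding rows, which were not used here, and counts for 6179 circRNAs, without normalization. 19 nameless columns held 0 values. The submitters' processing notes name Trimmomatic, HISAT2, StringTie and Sscrofa11.1 and a kit that removes ribosomal RNA, whereas the study's methods name Cutadapt, STAR and poly-A selection. The counting program and its strand setting are not given in the sources used here.

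The edgeR 4.0.16 quasi-likelihood model (R 4.3.3) was fitted to gene counts of all 3 groups after filterByExpr and TMM, and left 6 residual degrees of freedom and a common biological coefficient of variation of 0.0602. Benjamini-Hochberg adjustment ran over 13662 genes. SE is the log2 fold change divided by the square root of F. Per-length levels used merged RefSeq exons, and start regions were read from the Sscrofa11.1 sequence. Alternatives were DESeq2 1.42.0, its size factors, library totals alone, other filters, 2-group fits, a replicate block, other fold limits, coding length and leaving out each library.

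The members and the 7 pathway lists were chosen with earlier results of these data known. Every called member was named, TFEB, TFE3, LAMP1, LAMP2, SQSTM1 and MAP1LC3B were named in each comparison, other members were summarised with their extremes and a few further values chosen after they were seen, and of each list at most 2 genes per direction with the largest change and a mean of at least 10 counts were named.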

Additional observations from a re-analysis of the deposited data

How the results depend on the processing

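The limits are the scale, the fold limit and the number of libraries. With library totals alone, bFGF against OIM gave 1 member higher and 9 lower with a median of -0.171, bFGF against control 1 higher with a median of -0.275, and the summed levels were 7941, 6652 and 5579 CPM in control, OIM and bFGF. The values of LAMP1 (0.025), TFEB (0.029), ATP6V1A (0.004), NPC2 (0.21) and LIPA (0.222) in bFGF against OIM turned positive there, and TFE3 in OIM against control did so without OIM replicate 2 (-0.072 to 0.015 over the fits without a library). With no fold limit the members higher and lower were 1 and 16 in OIM against control, 4 and 30 in bFGF against OIM and 1 and 33 in bFGF against control, and the list genes called 38, 142 and 163. By this rule 7.69% of all genes were higher and 5.87% lower in OIM against control. In bFGF against OIM these shares were 33.8% and 33.5%. For bFGF against control they were not counted, so its members and list genes cannot be set against all genes by this rule. With a limit of 1 the counts were 0, 5 and 9 members lower and 0, 16 and 21 list genes called, where 0.205%, 9.11% and 10.4% of all genes were lower and 0.666%, 18.0% and 20.2% called either way. Leaving out each library gave 1 to 2, 16 to 18 and 18 to 20 members lower, 1 to 2, 53 to 59 and 68 to 75 list genes, and medians of -0.129 to -0.099, -0.432 to -0.368 and -0.526 to -0.480. All 9 such fits kept 16 of the 17 members called lower in bFGF against OIM and 18 of the 20 in bFGF against control, where LIPA and ATP6V0D1 lost their call in some and GALNS gained it in 2. The median per-length level of members was 58.97 CPM per kilobase with the longest coding sequence as length and 31.97 with merged exons. Libraries with the same number showed no shared deviation over all tested genes (correlations of -0.032 to 0.0035). This cannot exclude that they share a culture or a day, since the origin of the replicates is not stated. A replicate block gave 1, 17 and 20 members lower and 1, 56 and 71 list genes. Low members had wider errors, as TFEB with a change like that of LAMP1 in bFGF against OIM had an SE of 0.0986 against 0.0387.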

Other observations

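Circular RNAs, which form when an exon end is joined back to an upstream exon start, were counted in a separate part of the table. Of its 6179 circRNAs, 11 lay within 8 of the 40 members on the same strand, and 9 of the 11 were seen in 1 library only. The highest count of any was 9, for PSAP in a control library. A circRNA within ARSB (chr2:87745803-87760449) had 5, 4 and 7 counts in the control libraries, 2, 0 and 4 in OIM and 0, 3 and 0 in bFGF. These counts are too low for a comparison between groups.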
